A study of Homo sapiens with 8 samples.

Results

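Interferon-stimulated genes are the genes whose transcription rises when a cell receives interferon, and 45 of them were followed by name in U937 cells, a human monocytic line. The labels name no treatment with interferon. The 45 genes are a named list of well-known members of this response. The rule for the list used no measured value, but the members were chosen with earlier results of these data known. All 45 matched an Entrez gene number in the count tables, out of 15340 genes with a symbol and 22653 entries in all. Every member was listed in at least 1 of the 8 libraries, and 40 passed the filter on low counts and could be tested.

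All cells lacked SLC19A1, the reduced folate carrier, which also brings cyclic dinucleotides such as cGAMP into monocytic cells. Into this background a tetracycline-controlled, Flag-tagged SLC7A1 or SLC7A2 had been placed, which gave 2 lines. Both genes encode plasma membrane transporters of arginine and lysine. The 4 groups were SLC7A1 cells treated with doxycycline (dox, 1 µg/mL for 24 h), untreated SLC7A1 cells, dox-treated SLC7A2 cells and untreated SLC7A2 cells, and the 2 lines are called the SLC7A1 line and the SLC7A2 line. Each group held 2 libraries of poly(A) RNA, numbered 1 and 2, with 17309132 to 18441833 expected counts per library. The labels do not say whether a line was a single clone, and no cells without a construct received dox, so the drug and the transporter cannot be told apart within a line. In bulk RNA a lower share of expressing cells and less RNA per cell cannot be told apart either.

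Type I interferons act on a receptor that is linked to the kinases JAK1 and TYK2. The kinases phosphorylate STAT2, which acts with IRF9 in a complex that binds a promoter element called the interferon-stimulated response element. The induced proteins sense viral RNA, degrade it, block its translation or hold virus particles at the membrane, and some of them, such as USP18, dampen the signal again. cGAMP activates STING, which leads through TBK1 and IRF3 to the making of interferon. Myeloid cells are known to transcribe part of these genes at a basal level without any added interferon.

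Interferon genes themselves were next to silent. Of 19 type I and type III interferon genes, 16 were listed in no library, and IFNB1, IFNA5 and IFNE had 1 count each in 1 library. IFNG, the type II interferon, was listed in no library. A count of 0 allows up to 3 counts, which is 0.163 to 0.173 CPM (the count scaled to the library total). The receptor chains were present, with 5 of 6 receptor genes at 1 TPM or more on average (a level scaled for transcript length and library size) and a summed level of 147 to 175 TPM.

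The labelled cell type was checked on fixed markers. Of 18 monocytic markers, 15 averaged at least 1 TPM, and CSF1R, CD14 and MPO did not. The T cell genes CD3D, CD3E and CD3G were below 1 TPM, and of 8 T and B cell markers CD79A alone exceeded it, with a summed level of 20.7 to 34.3 TPM for the list. Of 9 fibroblast markers 2 averaged at least 1 TPM, and the list summed to 22.2 TPM in the SLC7A2 library numbered 2 without dox, against 3.46 to 6.83 TPM in the other 7 libraries. Both SLC7A2-line libraries numbered 2 stood apart. On the first principal component of all tested entries they lay at 68.1 with dox and 55.3 without dox, and the other 6 libraries lay between -52.7 and -3.7. IRF8, a transcription factor of the myeloid lineage, had 7.35 TPM with dox and 5.87 TPM without dox in these libraries, and 21.1 to 31.5 TPM in the other 6. The medians and fold changes that moved most without these libraries are also given without them.

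The response element can be read in the DNA of the members, and a few sites are shown because they belong to the genes that the results turn on. Windows of 300 bases, from 250 before to 50 after each annotated start, were taken from RefSeq on GRCh38.p14 and were found for 38 members. Both strands were searched for the core of the interferon-stimulated response element, a GAAA followed after any 2 bases by another GAAA. The core occurred in the windows of 24 of 38 members (63.2%) and in those of 1195 of 27305 genes with a window (4.38%). These genes are known for the element, so this share describes the list and is no evidence from the libraries. In the sites below, written 5′ to 3′ on the strand of the gene, capitals mark the element core or its reverse complement.
ISG15 (chr1:1013380-1013409, + strand): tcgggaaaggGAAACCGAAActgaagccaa
OAS3 (chr12:112938452-112938481, + strand): agccgggcggGAAAACGAAAccagaaatcc
DTX3L (chr3:122564322-122564351, + strand): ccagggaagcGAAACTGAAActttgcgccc
PARP9 (chr3:122564322-122564351, - strand): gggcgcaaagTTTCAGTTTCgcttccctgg
IFIT3 (chr10:89332425-89332454, + strand): acagattctgTTTCAGTTTCccctcaagag
BST2 (chr19:17405735-17405764, - strand): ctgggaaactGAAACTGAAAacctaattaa
IFI6 (chr1:27672288-27672317, - strand): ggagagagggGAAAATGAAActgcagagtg
IFI44L (chr1:78620365-78620394, + strand): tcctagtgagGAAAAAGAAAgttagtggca

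The DTX3L and PARP9 lines are the same bases read on opposite strands, since these neighbours on chromosome 3 start back to back and share 1 core. The core was found both in genes with a high level here, BST2, IFI6 and ISG15, and in IFI44L, which had 1 count in 1 library. No such letters were found in the windows of STAT2, ADAR, IFI16, HERC6 or SAMD9L, which says nothing beyond those windows. OAS2, OASL, IRF7, USP18, IFIT2, MX2 and TRIM22 had no entry in the promoter table.

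Without interferon the members spanned a wide range of levels, from BST2 to genes with single counts. By mean TPM over the 8 libraries, 2 members reached 100 TPM, 8 lay from 10 to under 100, 20 from 1 to under 10 and 15 below 1. The share below 1 TPM was 33.3% of members, against 34.4% of all Entrez genes listed, and the share at 100 TPM or more was 4.44% of members and 8.07% of all. The 4 highest members, BST2, IFI6, MX2 and IFI16, together made up 72.2% of the summed TPM of all 45.

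**Figure D1:**
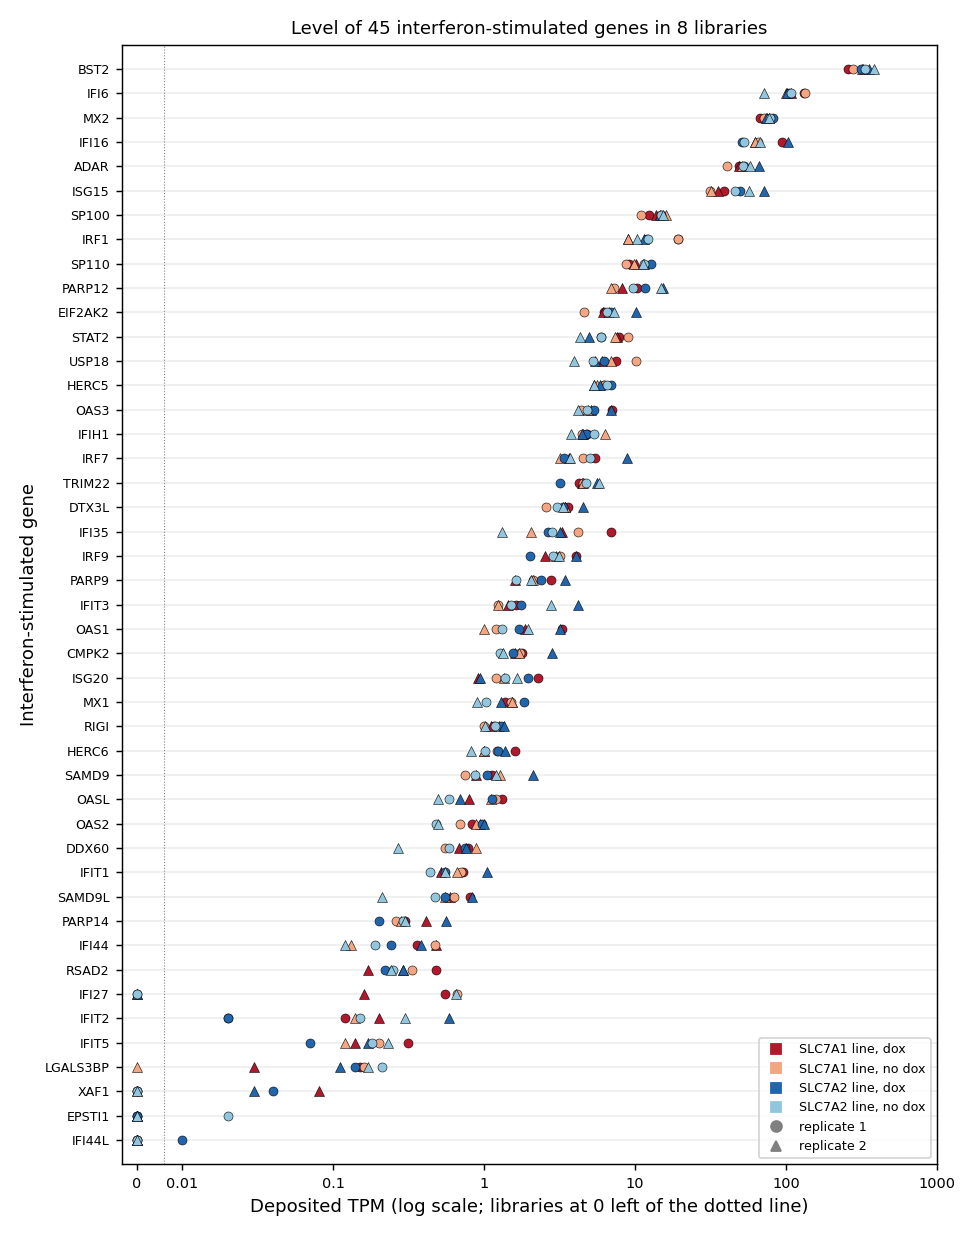
Deposited TPM of each of the 45 genes in the 8 libraries on a log axis, with 1 symbol per library, colours for the groups and shapes for the replicate numbers, and libraries at 0 set left of the dotted line. BST2 and IFI6 lie at the top with means of 320 and 107 TPM, 15 genes average below 1 TPM, and the groups intermingle for nearly every gene.

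BST2, or tetherin, which holds budding virus particles to the cell surface, had 256 and 324 TPM in dox-treated SLC7A1 cells and 277 and 319 TPM in untreated SLC7A1 cells. In the SLC7A2 line it had 315 and 354 TPM with dox and 336 and 382 TPM without. In TPM the ranges with and without dox overlapped in each line, and no other member came near this level. In CPM the SLC7A2 groups of BST2 were separate and lower with dox, at 193 and 189 against 210 and 222 CPM. IFI6, a small membrane protein that protects against flaviviruses, had 131 and 107 TPM in dox-treated SLC7A1 cells and 133 and 99.9 TPM in untreated SLC7A1 cells. In the SLC7A2 line IFI6 had 105 and 101 TPM with dox and 107 and 71.9 TPM without, the last being the lowest of the 8. MX2, a dynamin-like GTPase that restricts HIV-1, was the steadiest of the tested members, its highest library being 1.23 times its lowest.

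MX2 had 67.3 and 74.4 TPM in dox-treated SLC7A1 cells, 71.8 and 77.2 TPM in untreated SLC7A1 cells, 82.5 and 73.7 TPM in dox-treated SLC7A2 cells, and 78 and 77.6 TPM in untreated SLC7A2 cells. Its paralogue MX1, which restricts influenza virus, averaged 1.37 TPM. IFI16, a nuclear DNA sensor, had 93.7 and 61.8 TPM in dox-treated SLC7A1 cells, 64.7 and 61.8 TPM in untreated SLC7A1 cells, 51 and 103 TPM in dox-treated SLC7A2 cells, and 53 and 67.5 TPM in untreated SLC7A2 cells. For IFI16 a single dox library of each line stood high, numbered 1 in the SLC7A1 line and 2 in the SLC7A2 line, and the other 6 lay between 51 and 67.5 TPM. ADAR, which edits adenosine to inosine in double-stranded RNA, had 48.5 and 48.9 TPM in dox-treated SLC7A1 cells, 40.5 and 51.4 TPM in untreated SLC7A1 cells, 52.8 and 65.8 TPM in dox-treated SLC7A2 cells, and 52.1 and 57.5 TPM in untreated SLC7A2 cells. The groups of a line overlapped.

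ISG15, the ubiquitin-like protein that is conjugated to other proteins during the response, had 49.5 and 71.6 TPM in dox-treated SLC7A2 cells, 46.1 and 56.8 TPM in untreated SLC7A2 cells, 38.7 and 35.6 TPM in dox-treated SLC7A1 cells, and 31.4 and 31.8 TPM in untreated SLC7A1 cells. All 4 SLC7A2 libraries lay above all 4 SLC7A1 libraries. SP100, the core protein of a type of nuclear body, ranged from 11 to 15.9 TPM over the 8 libraries, with 12.3 and 13.7 TPM in dox-treated SLC7A1 cells, 11 and 15.9 TPM in untreated SLC7A1 cells, 14.8 and 14.6 TPM in dox-treated SLC7A2 cells, and 14.8 and 15.2 TPM in untreated SLC7A2 cells. SP110, a related nuclear body protein, ranged from 8.72 to 12.8 TPM, with 9.11 and 10.2 TPM in dox-treated SLC7A1 cells, 8.72 and 9.81 TPM in untreated SLC7A1 cells, 12.8 and 11.4 TPM in dox-treated SLC7A2 cells, and 11.4 and 11.3 TPM in untreated SLC7A2 cells. All 4 SP110 values of the SLC7A2 line lay above those of the SLC7A1 line in TPM, whereas in CPM the lines overlapped.

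IRF1, a transcription factor that drives antiviral genes also without STAT signalling, followed the replicate number in the SLC7A1 line. It had 19.1 and 9.02 TPM there with dox and 19.1 and 8.98 TPM without, and 12 and 11.4 TPM in dox-treated SLC7A2 cells and 12.2 and 10.3 TPM in untreated SLC7A2 cells. PARP12, a mono-ADP-ribosyltransferase that moves to stress granules, had 11.6 and 15.3 TPM in dox-treated SLC7A2 cells, 9.72 and 14.9 TPM in untreated SLC7A2 cells, 10.3 and 8.15 TPM in dox-treated SLC7A1 cells, and 7.26 and 6.93 TPM in untreated SLC7A1 cells. The lines overlapped for PARP12, since the lowest SLC7A2 library was below the highest SLC7A1 library.

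Below these came many genes that are commonly used to score an interferon response. The sensors IFIH1 and RIGI averaged 4.78 and 1.17 TPM, and EIF2AK2, the kinase PKR, 6.8 TPM. Among the IFIT genes, several of whose products bind RNA ends that lack a host cap, IFIT3 averaged 1.96 TPM, IFIT1 0.649 TPM, IFIT2 0.191 TPM and IFIT5 0.177 TPM. RSAD2, or viperin, which makes a chain-terminating nucleotide, averaged 0.284 TPM, while its neighbour and partner CMPK2, a mitochondrial nucleotide kinase, averaged 1.72 TPM.

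A set of 5 members was not tested and counts for no comparison. IFI44L and EPSTI1 had 1 count each in 1 library, XAF1 was listed in 3 libraries, IFI27 in 4 and LGALS3BP in 7, with at most 6 counts. The adjacent gene IFI44 averaged 0.296 TPM and was tested. In all 4 groups IFI27 and IFI44L stayed at or under the floor of 3 counts.

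The first question was whether 24 h of dox moved these genes in either line. None of the 40 tested members passed at an adjusted p of 0.05 in any dox comparison with the quasi-likelihood test of edgeR, in which 0% of all 17503 entries passed as well. With DESeq2 and with the same-numbered libraries of a line as a block, again no member passed in the dox comparisons, while 0.0514% of entries passed in the SLC7A1 line with DESeq2, 0.0571% in the SLC7A2 line and 0.00571% across both lines. With the replicate block 0.0114%, 0.00571% and 0.0171% of entries passed in these comparisons with edgeR and 0.257%, 0.149% and 0.606% with DESeq2. At an unadjusted p under 0.05 edgeR gave OAS1 alone in the SLC7A1 line (2.5% of members, against 1.27% of entries) and PARP9 alone in the SLC7A2 line (2.5%, against 1.28%). Across both lines it gave OAS1 and OAS3, which is 5% of members, against 1.49% of entries, and DTX3L was added with the block, against 5.83% of entries. Without both SLC7A2-line libraries numbered 2, the members' median log2 fold change (dox over no dox) was 0.09 in the SLC7A1 line. It was 0.07 in the SLC7A2 line and 0.07 across both lines. With groups of 2 libraries, a p that misses the threshold does not show that levels were equal.

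Although no gene passed, the members lay more often above 0 than below it. The fitted log2 fold change, dox over no dox, was above 0 for 27 of 40 members in the SLC7A1 line (median 0.08) and for 31 of 40 in the SLC7A2 line (median 0.24). Over all entries 49.2% and 51.3% were positive, with medians of 0.00 and 0.01. Across both lines 30 of 40 members (75%) were positive, their median being 0.20, against 51.7% of entries and a median of 0.01. Genes of a shared pathway vary together within a library, so these counts describe the libraries and carry no test.

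**Figure D2:**
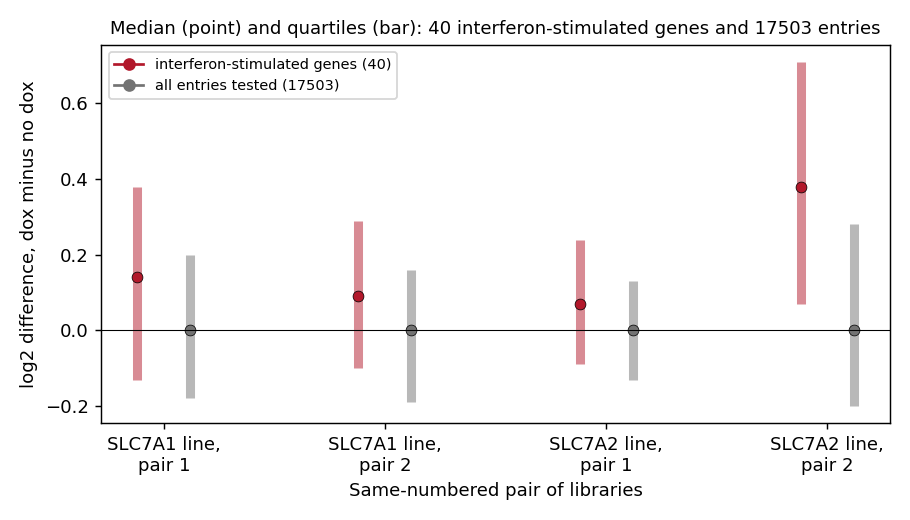
Median and quartiles of the log2 difference in TMM-normalised CPM, dox minus no dox, for the 40 tested genes and for all 17503 entries in each same-numbered pair of libraries. The genes' medians are 0.14, 0.09, 0.07 and 0.38, and those of all entries 0.00 in each pair; the bar of the fourth pair alone lies wholly above 0.

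The size differed between pairs of libraries. In the SLC7A1 line the median member difference was 0.14 in pair 1 and 0.09 in pair 2, with 23 and 27 of 40 members higher with dox, against 49.8% and 50.3% of entries. In the SLC7A2 line it was 0.07 in pair 1 and 0.38 in pair 2, with 23 and 31 of 40 higher, against 49.7% and 50.2% of entries. Both pairs were higher with dox for 15 of 40 members in the SLC7A1 line (37.5%, against 25.3% of entries) and for 20 of 40 in the SLC7A2 line (50%, against 25.6%). Without both SLC7A2-line libraries numbered 2, the fitted median across both lines was 0.07 with 26 of 40 members positive, and that of the SLC7A2 line was also 0.07 with 23 of 40 positive. Without the dox-treated library of that pair alone, the medians were 0.09 across both lines and 0.09 in the SLC7A2 line.

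Other measures moved with the same pairs. The entry of Flag-tagged SLC7A2 had 265 and 4670 CPM in dox-treated SLC7A2 cells and 0.57 and 9.46 CPM in untreated SLC7A2 cells, so pair 2, with the highest member median, also had the most construct. The entry of Flag-tagged SLC7A1 had 840 and 378 CPM in its dox-treated cells and 0.29 and 0 CPM without. The summed monocytic markers, most of which is the granule protease CTSG, were 12547 and 12192 TPM in dox-treated SLC7A1 cells and 17720 and 13920 TPM in untreated SLC7A1 cells, and 13897 and 7922 TPM in dox-treated SLC7A2 cells and 13653 and 10104 TPM in untreated SLC7A2 cells. Of 17 tested monocytic markers, 3 had a positive fold change with dox in the SLC7A1 line (median -0.09) and 8 in the SLC7A2 line (median -0.12). Single markers went different ways, and the next 2 were chosen after their values were seen. ITGAM, an integrin of mature myeloid cells, differed by 1.02 and 0.14 in pairs 1 and 2 of the SLC7A1 line, and by 0.00 and 1.24 in those of the SLC7A2 line. LYZ, the lysozyme of monocytes, differed by -0.31 and -0.21 in the SLC7A1 pairs, and by -0.16 and -0.40 in the SLC7A2 pairs. The part of the construct level or of these markers in the member values was not tested.

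**Figure D3:**
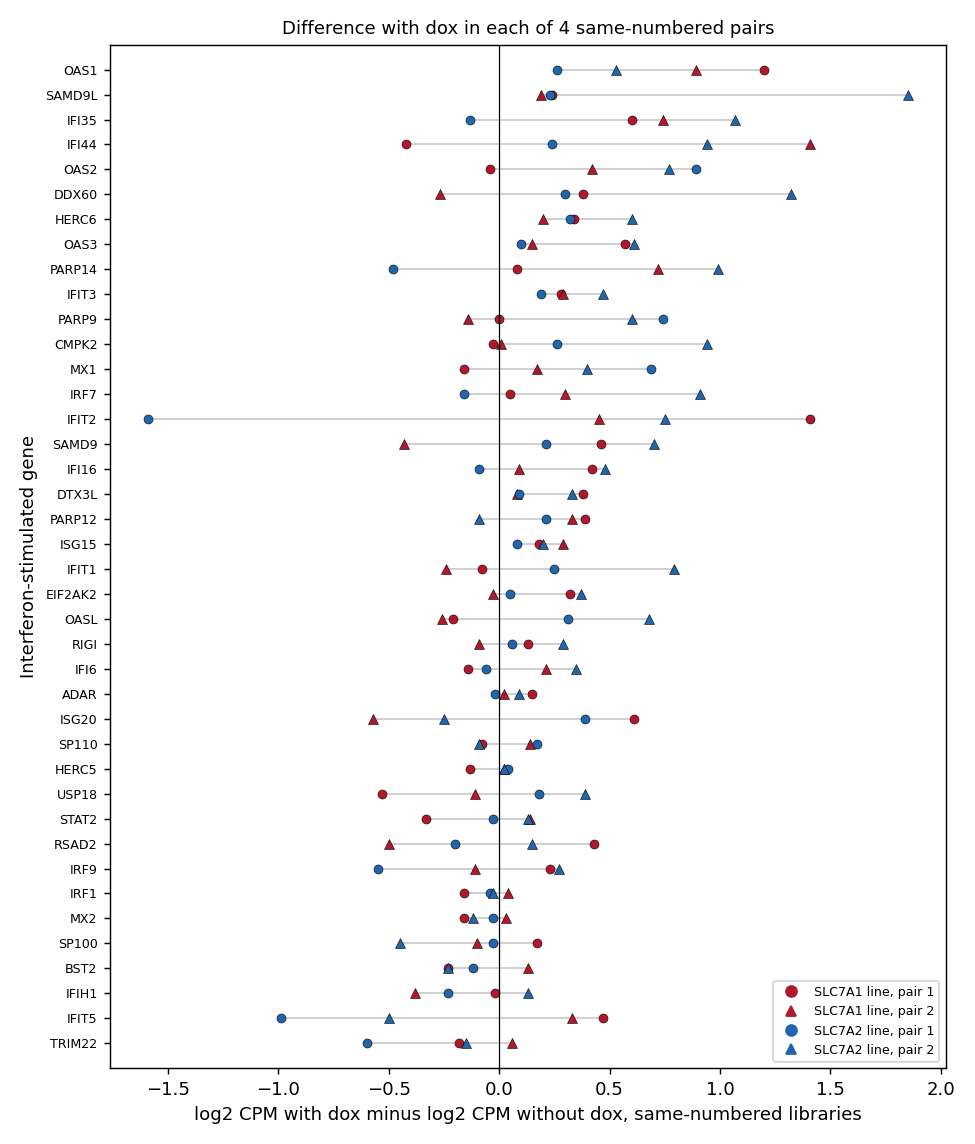
The log2 difference, dox minus no dox, of each of the 40 tested genes in the 4 same-numbered pairs, with genes ordered by their mean, red for the SLC7A1 line, blue for the SLC7A2 line, circles for pair 1 and triangles for pair 2. OAS1, SAMD9L, HERC6, OAS3, IFIT3, DTX3L and ISG15 have all 4 symbols right of 0, and SAMD9L has 1 symbol at 1.85 with the other 3 at 0.19 to 0.24.

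A group of 7 members was higher with dox in all 4 pairs, 17.5% of the 40 tested, against 7.7% of all entries, and none was lower in all 4, against 7.07%. The 7 were OAS1, OAS3, ISG15, HERC6, IFIT3, SAMD9L and DTX3L. At least 3 of 4 pairs were higher for 23 of 40 (57.5%), against 32.7% of entries. Without pair 2 of the SLC7A2 line, a check chosen after seeing the data, 8 of 40 (20%) were higher in the remaining 3 pairs, the same 7 and PARP12, against 14.6% of entries. Of the 7, OAS3, ISG15, IFIT3 and DTX3L held the response element core in their windows. These counts of pairs are in log2 CPM. In TPM, pair 2 of the SLC7A1 line was lower with dox for DTX3L (3.41 against 3.43) and equal for HERC6 (0.99 in both). The others of the 7 were higher in all 4 pairs in TPM as well.

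OAS1 and OAS3 encode enzymes that make 2′-5′-linked oligoadenylate, the activator of RNase L, when they meet double-stranded RNA. OAS3 (Entrez 4940, chr12:112938474-112973251, GRCh38.p14) had 38.1 and 29.4 CPM in dox-treated SLC7A1 cells, against 25.7 and 26.4 CPM in untreated SLC7A1 cells. OAS3 stood at 28.1 and 32.3 CPM in dox-treated SLC7A2 cells, against 26.2 and 21.1 CPM in untreated SLC7A2 cells. All 4 dox libraries lay above all 4 libraries without dox, which held for OAS3 alone among the 40 members (2.5%) and for 0.491% of all entries. Its log2 fold change across both lines was 0.36 ± 0.12 (SE) with edgeR, adjusted p = 1, and DESeq2 with the replicate block gave an adjusted p of 0.209. Without both SLC7A2-line libraries numbered 2, OAS1, OAS3 and IFIT3 had their 3 dox libraries above the 3 others, 7.5% of members, against 2.81% of entries.

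OAS1 lies beside OAS3 on chromosome 12 (chr12:112906962-112933219). It had 4.26 and 2.42 CPM in dox-treated SLC7A1 cells, against 1.8 and 1.25 CPM in untreated SLC7A1 cells, and 2.15 and 3.53 CPM in dox-treated SLC7A2 cells, against 1.77 and 2.41 CPM in untreated SLC7A2 cells. Dox and no-dox libraries did not overlap in the SLC7A1 line and did in the SLC7A2 line. Across both lines edgeR gave a log2 fold change of 0.78 ± 0.33 (SE), adjusted p = 1. The other members of the family were OAS2, with a value above 0 in 3 of 4 pairs, and OASL, with opposite directions in the lines in CPM. All 4 OAS genes had positive fold changes across both lines, with a median of 0.46, and 0 of 4 passed.

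**Figure D4:**
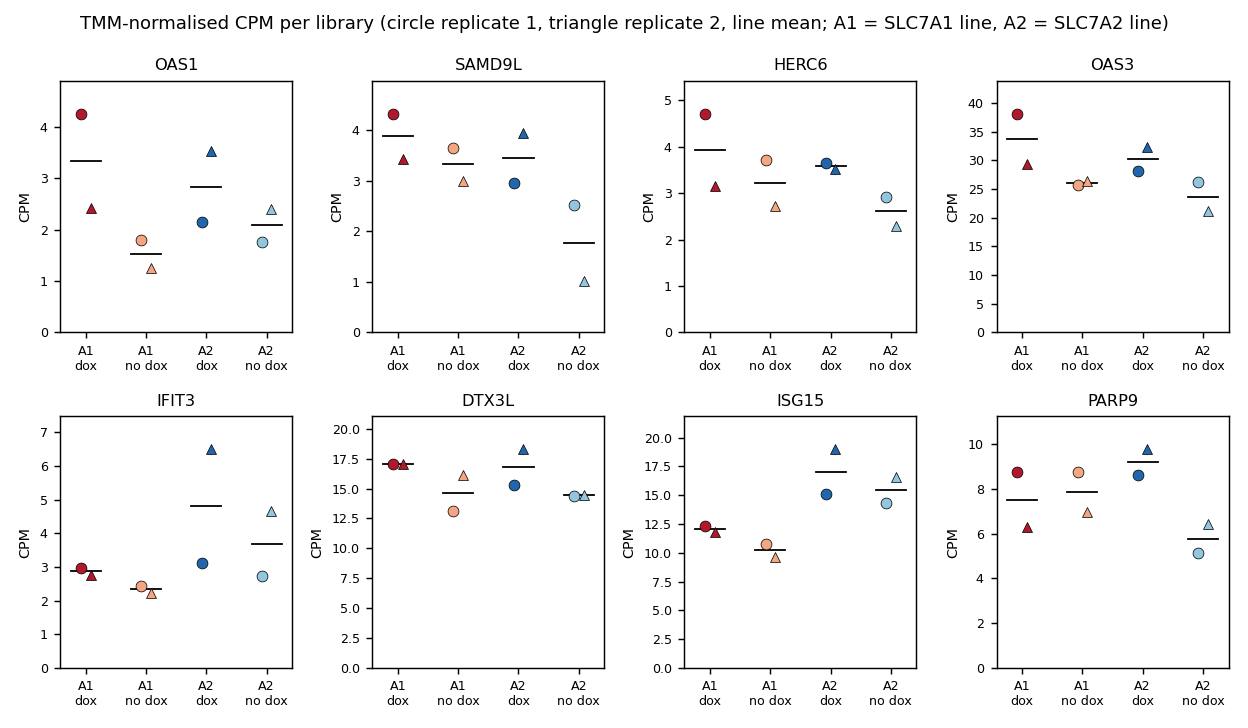
TMM-normalised CPM of 8 genes in every library, with circles for replicate 1, triangles for replicate 2 and a line at the group mean; in each panel the groups run SLC7A1 line with dox, SLC7A1 line without, SLC7A2 line with dox, SLC7A2 line without. OAS3 is the panel in which all dox symbols, 28.1 to 38.1 CPM, lie above all no-dox symbols, 21.1 to 26.4 CPM, and PARP9 is separated by dox in the SLC7A2 line.

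SAMD9L, a paralogue of SAMD9 that restrains protein synthesis and poxviruses, had 4.32 and 3.43 CPM in dox-treated SLC7A1 cells, against 3.65 and 2.99 CPM in untreated SLC7A1 cells, and 2.96 and 3.94 CPM in dox-treated SLC7A2 cells, against 2.51 and 1.02 CPM in untreated SLC7A2 cells. The SLC7A2 library numbered 2 without dox was the low one, and the pair differences were 0.24, 0.19, 0.23 and 1.85. Its log2 fold change across both lines was 0.59 ± 0.34 (SE, edgeR, adjusted p = 1), 0.31 without that library, and 0.23 without both SLC7A2-line libraries numbered 2. It was 0.77 without the SLC7A2 library numbered 1 without dox. HERC6, a relative of the main human ISG15 ligase HERC5, had 4.71 and 3.15 CPM in dox-treated SLC7A1 cells, against 3.71 and 2.72 CPM in untreated SLC7A1 cells, and 3.65 and 3.53 CPM in dox-treated SLC7A2 cells, against 2.91 and 2.3 CPM in untreated SLC7A2 cells. Dox libraries lay above the others in the SLC7A2 line, and the groups overlapped in the SLC7A1 line. The edgeR value across both lines was 0.38 ± 0.24 (SE, adjusted p = 1).

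IFIT3, which strengthens the binding of IFIT1 to uncapped or foreign RNA ends, had 2.97 and 2.76 CPM in dox-treated SLC7A1 cells, against 2.43 and 2.23 CPM in untreated SLC7A1 cells, and 3.13 and 6.5 CPM in dox-treated SLC7A2 cells, against 2.74 and 4.65 CPM in untreated SLC7A2 cells. Both libraries of the SLC7A2 line numbered 2 were higher than the other 6. The edgeR value was 0.34 ± 0.29 (SE, adjusted p = 1), 0.08 without the SLC7A2 dox library numbered 2, and 0.19 without the SLC7A2 library numbered 1 without dox. It was 0.51 without the SLC7A2 dox library numbered 1. DTX3L, a ubiquitin ligase that pairs with PARP9, had 17.1 and 17.1 CPM in dox-treated SLC7A1 cells, against 13.1 and 16.1 CPM in untreated SLC7A1 cells, and 15.3 and 18.3 CPM in dox-treated SLC7A2 cells, against 14.4 and 14.5 CPM in untreated SLC7A2 cells. In CPM the dox libraries of DTX3L lay above the others within each line. In TPM they overlapped in the SLC7A1 line, with 3.61 and 3.41 against 2.55 and 3.43. Its edgeR value was 0.22 ± 0.12 (SE, adjusted p = 1).

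ISG15 had 12.3 and 11.8 CPM in dox-treated SLC7A1 cells, against 10.8 and 9.63 CPM in untreated SLC7A1 cells, and 15.1 and 19 CPM in dox-treated SLC7A2 cells, against 14.3 and 16.6 CPM in untreated SLC7A2 cells. The dox libraries lay above the others in the SLC7A1 line and overlapped them in the SLC7A2 line. The difference with dox, 0.19 ± 0.13 on the log2 scale (SE, edgeR, adjusted p = 1), was smaller than the difference between the lines.

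By role, the counts of positive fold changes are given beside 51.7% positive over all entries, and differences between roles were not tested. All 4 genes of the PARP and DTX3L group had positive fold changes across both lines with a median of 0.26, and so did the 3 tested IFI genes IFI6, IFI35 and IFI44 with a median of 0.53. The RNA and DNA sensors were positive in 5 of 6 with a median of 0.13, the IFIT genes in 3 of 4 with 0.28, and the GTPases, viperin and other direct effectors in 6 of 9 with 0.16. The transcription factors STAT2, IRF1, IRF7 and IRF9 were positive in 2 of 4 with a median of -0.02, and the ISG15 system, ISG15, USP18, HERC5 and HERC6, in 2 of 4 with 0.09. Of the 2 tested nuclear body genes, SP100 and SP110, 1 was positive, with a median of -0.04. None of these passed the test in any group.

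Among the abundant members the pair differences of ADAR ran from -0.02 to 0.15, those of MX2 from -0.16 to 0.03, and those of BST2 from -0.23 to 0.13. Those of IFI6 were wider, from -0.14 to 0.35, and so were those of IFI16, from -0.09 to 0.48, the highest value of both being in pair 2 of the SLC7A2 line. The widest spreads between pairs were those of IFIT2, from -1.59 to 1.41, IFI44, from -0.42 to 1.41, and SAMD9L, from 0.19 to 1.85, all of which averaged below 1 TPM. The summed TPM of the 45 genes was 774 and 762 in dox-treated SLC7A1 cells and 740 and 754 without, and 777 and 912 in dox-treated SLC7A2 cells and 788 and 829 without.

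Genes around the pathway were also read, from a list made for this comparison. Of 36 other interferon-induced genes 29 were tested, and 16 were positive and 13 negative across both lines, with a median of 0.02. The 5 tested receptor genes had a median of -0.03, the 5 inhibitors of signalling 0.02, and the 9 kinases and factors of interferon induction 0.02. None of these genes passed edgeR.

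A second question was whether the lines responded differently. The difference of the dox effects, SLC7A2 line minus SLC7A1 line, passed for no member and for 0% of entries with edgeR, and at an unadjusted p under 0.05 for 0 members against 1.27% of entries. DESeq2 called no member and 0.114% of entries, and with the replicate block no member passed either, against 0% of entries with edgeR and 0.12% with DESeq2. The median difference of the members was 0.07, it was -0.06 without both SLC7A2-line libraries numbered 2, and leaving out single libraries moved it between -0.03 and 0.17. By fitted direction 23 members were positive in both lines, 5 negative in both and 12 opposite, so 70% had the same sign, against 52.9% of all entries.

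In log2 CPM, OASL, USP18, IFIT1 and PARP9 were higher with dox in both SLC7A2 pairs and lower in both SLC7A1 pairs. They made up 10% of members, against 5.11% of entries. The reverse held for IFIT5 alone, 2.5% of members, against 5.07% of entries. In TPM, PARP9, OASL and IFIT1 were higher with dox in pair 1 of the SLC7A1 line. Their TPM values there were 2.76 against 2.09, 1.32 against 1.19 and 0.72 against 0.7. USP18 and IFIT5 kept their directions in TPM. PARP9, the partner of DTX3L that reads ADP-ribose, had 8.64 and 9.78 CPM in dox-treated SLC7A2 cells, against 5.13 and 6.42 CPM in untreated SLC7A2 cells, and 8.75 and 6.3 CPM in dox-treated SLC7A1 cells, against 8.75 and 6.96 CPM in untreated SLC7A1 cells. In pair 1 of the SLC7A1 line it was lower with dox by less than the printed digits show, and both SLC7A2 dox libraries lay above both without. The difference between the lines was 0.73 ± 0.39 (SE, edgeR, adjusted p = 1), and 0.75 ± 0.25 (SE, adjusted p = 1) in edgeR with the replicate block. DTX3L, which shares the core of the element with PARP9, had positive pair differences in both lines. Without stated use of strand, reads of these back-to-back genes near their starts could not be told apart.

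IFIT1 had 1.86 and 3.12 CPM in dox-treated SLC7A2 cells, against 1.54 and 1.76 CPM in untreated SLC7A2 cells, and 2.52 and 1.91 CPM in dox-treated SLC7A1 cells, against 2.66 and 2.28 CPM in untreated SLC7A1 cells. In CPM the SLC7A2 groups were separate and the SLC7A1 groups overlapped, and in TPM the SLC7A2 groups of IFIT1 met at 0.55. IFIT5, its neighbour on chromosome 10, had 0.232 and 0.461 CPM in dox-treated SLC7A2 cells, against 0.57 and 0.695 CPM in untreated SLC7A2 cells, and 1.01 and 0.507 CPM in dox-treated SLC7A1 cells, against 0.695 and 0.381 CPM in untreated SLC7A1 cells. The differences between the lines were 0.75 ± 0.60 for IFIT1, 0.77 ± 0.74 for OASL and -1.34 ± 1.09 for IFIT5 (SE, edgeR, adjusted p = 1 for each). Each of these differences was little more than its SE. Without the SLC7A2 dox library numbered 2 that of IFIT1 was 0.33, and without both SLC7A2-line libraries numbered 2 it was 0.42. It was 1.08 without the SLC7A2 dox library numbered 1. That of OASL was 1.20 without the SLC7A2 library numbered 1 without dox and 0.44 without the one numbered 2. That of IFIT5 was -0.77 without the SLC7A1 dox library numbered 1 and -1.91 without the SLC7A2 dox library numbered 2.

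The third comparison set the lines against each other, the SLC7A2 line over the SLC7A1 line. Across dox, edgeR called no member and 0% of entries, and gave 7 of 40 members (17.5%) an unadjusted p under 0.05, against 12.8% of entries. DESeq2 called STAT2 and ISG15, 5% of members, against 1.99% of entries. The fitted fold change was negative for 29 of the 40 (median -0.15), and with limma on log2(TPM + 1) for 20 of the 40 (median 0.01), so the sign of the group median depends on the scale. The edgeR median was -0.07 without the SLC7A1 dox library numbered 1, -0.08 without the SLC7A1 library numbered 1 without dox, -0.09 without the SLC7A2 library numbered 2 without dox, and -0.24 without the SLC7A1 dox library numbered 2. It was -0.22 without the SLC7A2 dox library numbered 2, and -0.20 without both SLC7A2-line libraries numbered 2. On the scale of log2(TPM + 1) 66.3% of all entries were positive (median 0.09), against 49.5% in the edgeR fit (median -0.00). On both scales the members' median was below that of all entries. Without dox the edgeR median was -0.17, 0% of entries and no member passed, and 5 members had an unadjusted p under 0.05 (12.5%, against 5.32% of entries). The median was -0.27 and -0.14 without the untreated SLC7A2 libraries numbered 1 and 2. It was -0.07 and -0.26 without the untreated SLC7A1 libraries numbered 1 and 2.

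In CPM, OASL, STAT2 and USP18 were lower in all 4 SLC7A2 libraries than in all 4 SLC7A1 libraries. They made up 7.5% of members, against 5.11% of entries, and ISG15 was higher in all 4, 2.5% against 4.35%. These shares are close to those of all entries, and the lines also differ in 2 libraries that stand apart. In TPM the lines overlapped for OASL and USP18 and stayed separate for STAT2 and ISG15.

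STAT2 (Entrez 6773, chr12:56341597-56360107), the partner of IRF9 in the factor that binds the response element, had 20.4 and 14.9 CPM in dox-treated SLC7A2 cells and 20.8 and 13.6 CPM in untreated SLC7A2 cells, against 27.1 and 28.3 CPM in dox-treated SLC7A1 cells and 34.1 and 25.7 CPM in untreated SLC7A1 cells. The lowest values were those of the SLC7A2 libraries numbered 2, and those numbered 1 were still below every SLC7A1 library. Its log2 fold change was -0.72 ± 0.17 (SE) with edgeR, adjusted p = 0.315, and -0.72 ± 0.20 with DESeq2, adjusted p = 0.0247. Without both SLC7A2-line libraries numbered 2, the edgeR value was -0.48, adjusted p = 0.725. Its expected counts were not whole in any library, which means that RSEM, the program that estimated them, divided fragments between STAT2 and other entries, and the part of this division in the difference was not tested.

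ISG15 (Entrez 9636, chr1:1013497-1014540) had 15.1 and 19 CPM in dox-treated SLC7A2 cells and 14.3 and 16.6 CPM in untreated SLC7A2 cells, against 12.3 and 11.8 CPM in dox-treated SLC7A1 cells and 10.8 and 9.63 CPM in untreated SLC7A1 cells. The highest value belonged to an SLC7A2 library numbered 2, and those numbered 1 were also above every SLC7A1 library. The log2 fold change was 0.55 ± 0.13 (SE) with edgeR, adjusted p = 0.315, and 0.56 ± 0.16 with DESeq2, adjusted p = 0.0346. Its expected counts were whole in all 8 libraries.

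**Figure D5:**
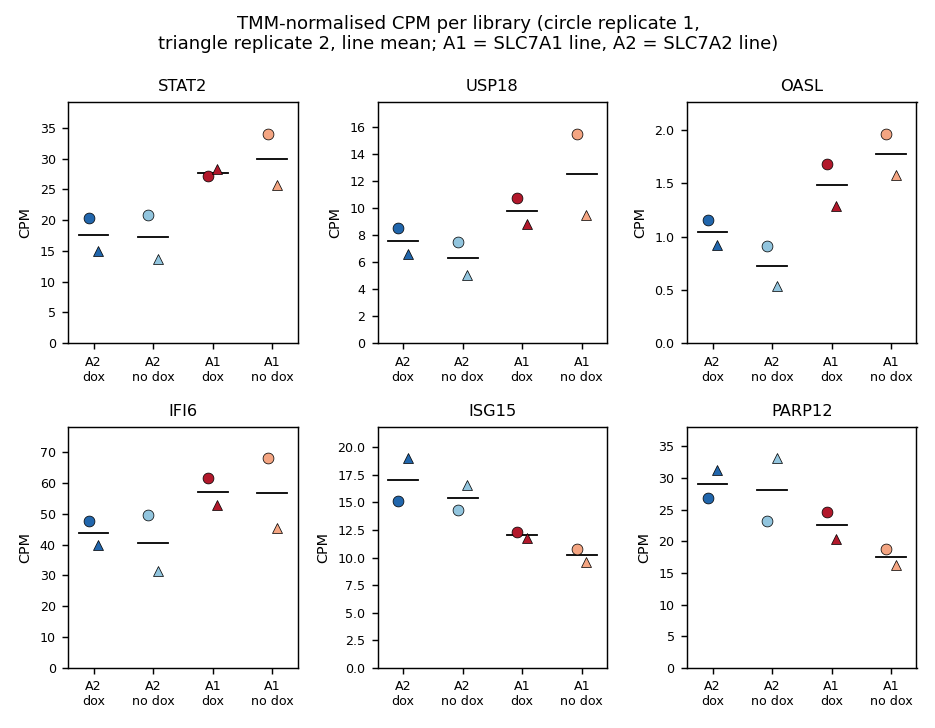
TMM-normalised CPM of 6 genes in every library, with the SLC7A2 line left of the SLC7A1 line in each panel, circles for replicate 1, triangles for replicate 2 and a line at the group mean. STAT2, USP18 and OASL lie lower and ISG15 lies higher in all 4 SLC7A2 libraries, while the lines overlap for IFI6 and PARP12.

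USP18, the protease that removes ISG15 from proteins and blocks the type I receptor, had 8.47 and 6.6 CPM in dox-treated SLC7A2 cells and 7.47 and 5.03 CPM in untreated SLC7A2 cells, against 10.7 and 8.78 CPM in dox-treated SLC7A1 cells and 15.5 and 9.46 CPM in untreated SLC7A1 cells. In CPM the lines did not overlap, with the closest libraries at 8.47 and 8.78 CPM. In TPM they overlapped, with a dox-treated SLC7A2 library at 6.22 and a dox-treated SLC7A1 library at 5.99. Its fold change was -0.68 ± 0.24 (SE, edgeR, adjusted p = 0.344). USP18 had -0.46 without the SLC7A1 library numbered 1 without dox, and -0.82 without the SLC7A2 dox library numbered 1. Its expected counts were not whole in any library, and USP18 has a near-identical copy in the genome, so its level is uncertain. OASL, an OAS relative without synthase activity that aids RIG-I, had 1.16 and 0.921 CPM in dox-treated SLC7A2 cells and 0.912 and 0.535 CPM in untreated SLC7A2 cells, against 1.68 and 1.29 CPM in dox-treated SLC7A1 cells and 1.97 and 1.58 CPM in untreated SLC7A1 cells. The lines were separate at this low level in CPM, and the fold change was -0.90 ± 0.37 (SE, edgeR, adjusted p = 0.376). In TPM the lines overlapped for OASL, with a dox-treated SLC7A2 library at 1.12 and a dox-treated SLC7A1 library at 0.79.

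IFI6 had 47.7 and 40 CPM in dox-treated SLC7A2 cells and 49.7 and 31.3 CPM in untreated SLC7A2 cells, against 61.7 and 52.7 CPM in dox-treated SLC7A1 cells and 68 and 45.5 CPM in untreated SLC7A1 cells. The lines overlapped, since the SLC7A1 library at 45.5 CPM was below 2 SLC7A2 libraries. PARP12 had 26.9 and 31.2 CPM in dox-treated SLC7A2 cells and 23.2 and 33.1 CPM in untreated SLC7A2 cells, against 24.6 and 20.4 CPM in dox-treated SLC7A1 cells and 18.7 and 16.3 CPM in untreated SLC7A1 cells. The fold changes were -0.44 ± 0.18 for IFI6 (SE, edgeR, adjusted p = 0.378) and 0.53 ± 0.15 for PARP12 (SE, edgeR, adjusted p = 0.321). Without both SLC7A2-line libraries numbered 2, they were -0.22 for IFI6 and 0.33 for PARP12 (edgeR, adjusted p = 0.844 and 0.725).

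By role the difference between the lines had both signs. Fold changes of the SLC7A2 line over the SLC7A1 line were negative in 4 of 4 transcription factors with a median of -0.36, in 3 of 3 tested IFI genes with -0.79, and in 7 of 9 direct effectors with -0.15. They were positive in 2 of 4 IFIT genes with a median of 0.25, and in both tested nuclear body genes with 0.15. Within the ISG15 system the value of ISG15 was positive and those of USP18, HERC5 and HERC6 negative, with a group median of -0.14. None of these role groups had a member called by edgeR.

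Replicates set the scale for all of this. Between the replicates of a group, 10 to 14 of the 40 members differed by more than 0.5 on the log2 scale, against 24.9% to 37.4% of all entries. The median absolute difference between replicates was 0.28 to 0.36 for the members, against 0.25 to 0.37 for all entries. That between dox and no dox within a pair was 0.20 to 0.42 for the members, against 0.13 to 0.23 for all entries.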

How the data were processed

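Each deposited file holds 1 library. The expected count, FPKM and TPM of each entry were made by the authors, per the file headers, and the submitters' processing notes list the build hg38 and, without stating their roles, RSEM 1.3.1, Bowtie2 2.3.4.3, HISAT and DESeq2 1.4.5. The deposited expected counts, which RSEM estimates and which need not be whole, were used for all tests. The deposited TPM was used for levels and for 1 alternative, and the deposited FPKM was not used. The strand setting of the counting was not given in the sources used here, and genes that overlap another gene or its antisense transcript are uncertain. Files list only entries above 0, and an absent entry was taken as 0. Titles gave the groups and replicate numbers. No label says that libraries of a group came from separate cultures, so a p-value measures the spread between these libraries alone, and that spread may be technical. Replicates differed by more than sampling noise (chi-square per entry 20.63 to 45.56).

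Expected counts were rounded to whole numbers and filtered with filterByExpr (minimum count 10, minimum total 15), which kept 17503 entries, of which 11567 had a symbol and 5927 were assembled loci with no gene name. Between 6.56% and 7.25% of a library's counts fell on such loci, which are not named. Tests used TMM scaling and edgeR 4.0.16 (quasi-likelihood F test, R 4.3.3) over all entries, with Benjamini-Hochberg adjustment at 0.05. A fit of the 4 group means gave dox in each line, the difference of these effects and the lines without dox. An additive fit of line and dox gave dox across both lines and the lines across dox. For edgeR the SE is the size of the log2 fold change divided by the root of F, and for DESeq2 it is the tool's own. CPM values of genes are TMM-normalised, floors are per library total, and pair differences are of log2 CPM with a prior count of 2. Floors cover counting error only. Alternatives were DESeq2 1.42.0, RLE factors, no filter, limma 3.58.1 on log2(TPM + 1), a replicate block in both count tools, each library left out, and both SLC7A2-line libraries numbered 2 left out. The edgeR fits were tested on simulated counts of the 17503 entries. At a true fold of 1.5, 2 and 4 they recovered 0%, 13.4% and 63.6% of changed entries for dox in the SLC7A1 line and 7.46%, 53.7% and 90.9% for dox across both lines, with 6 false calls in each. The changed entries were drawn from those with a mean above 2 CPM, so these percentages do not describe members below that level.

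Same-numbered libraries of a line deviated together over all entries, with a correlation of 0.197 in the SLC7A1 line and 0.312 in the SLC7A2 line, so the numbers were taken to pair libraries within a line, on the data and not on the labels. Between lines these correlations were 0.0684 without dox and 0.0113 with dox, so lines were not paired.

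Values in every library are given for members called by the edgeR fit or a block fit, the 10 with the highest mean TPM, those of the same direction with dox in all 4 pairs (up to 8 higher and 4 lower), up to 6 whose lines do not overlap, and the 4 with the widest difference between lines among those with opposite pairs. Members, lists and rules were chosen with earlier results of these data known.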

Additional observations from a re-analysis of the deposited data

How the results depend on the processing

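No called value changed sign under any alternative. In the dox comparisons no member was called under any setting, but counts over all entries, 0 in each edgeR comparison, moved. DESeq2 called 9 entries in the SLC7A1 line, 10 in the SLC7A2 line, 20 for the difference, 1 across both lines, 35 for the lines without dox and 349 for the lines across dox. With no filter on low counts 2 were called in the SLC7A1 line, 2 across both lines and 3 for the lines across dox. With limma on log2(TPM + 1) there were 2, 2 and 3 in the SLC7A1 line, the SLC7A2 line and the difference, and the members' median was -0.03 for the lines without dox and 0.01 for the lines across dox. Without both SLC7A2-line libraries numbered 2 there was 1 called entry for dox across both lines and 1 for the lines across dox. Leaving out single libraries gave 0 to 1 entries in the SLC7A2 line, for the lines without dox and for the lines across dox, and moved the members' median in the SLC7A1 line between 0.01 and 0.15. With RLE factors the printed medians moved by at most 0.01 and the counts of called entries stayed at 0. The causes were not tested.

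With the replicate block edgeR called 2 entries in the SLC7A1 line, 1 in the SLC7A2 line, 3 for dox across both lines and 256 for the lines across dox. DESeq2 with the block called 45, 26, 21 for the difference, 106 across both lines, 337 for the lines without dox and 1480 for the lines across dox. The members' median in the SLC7A1 line was 0.04 in the edgeR block. For the lines across dox, where numbers share no deviation between the lines, DESeq2 without the block called 2 members, STAT2 and ISG15. With the block edgeR called 1, STAT2, and DESeq2 called 5, namely STAT2, ISG15, USP18, IFI6 and PARP12, against 8.46% of entries. The block changed no other member's call. Members below 1 TPM rest on few counts, and groups of 2 libraries limit every test.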
